A study of Mus musculus with 3 samples.

Results

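Gene body regions of H2AK119ub are the stretches of called signal that the authors placed in the location class gene body, that is within a gene and away from the class they called promoter. They numbered 2153 of 7838 regions in replicate 1 (27.5%) and 2345 of 8093 in replicate 2 (29.0%), or 4498 of 15931 regions over both lists and 28.2% ± 1.07 (SD, n = 2) of a list. Members were chosen by that class alone, whatever their width or strength. In replicate 1 they covered 12.1 Mb, which was 20.1% of the length under called regions, and in replicate 2 they covered 11.4 Mb, or 21.6%.

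The libraries came from the lingual epithelium of control mice at postnatal day 0, by chromatin immunoprecipitation and sequencing (ChIP-seq) with an antibody against H2AK119ub. The submitters describe the cells as basal and non-gustatory: the posterior circumvallate papillae, which hold many taste buds, were cut away, and cells were sorted on EpCAM, a surface protein of epithelia. Both replicates carried the control genotype, for which no strain, allele or sex is given in the sources used here, and there was no mutant or treated group. An input library exists and was not analysed here. The labels call the replicates biological, without the number of animals behind each.

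H2AK119ub is histone H2A carrying a single ubiquitin on a lysine of its C-terminal tail. Polycomb repressive complex 1 (PRC1) places it through its RING-type E3 ligases, and it is best known at CpG-rich promoters of developmental genes, where it goes with repression. The question asked of the gene body regions is a descriptive one: which genes carried the mark inside the gene in both replicates, and which of those carried none that was assigned to their promoter. The lists hold positions and names without heights, so the depth is unknown and presence, position and width were what could be compared. With 1 group of 2 libraries no difference was tested, regions of a library are not replicates, and intervals cover counting error only. In sorted bulk cells, a strong mark in few cells and a weak mark in many cannot be told apart.

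For 4 of the genes described below, the 250 bases before an annotated start are shown, because they set starts outside any called region beside a start inside one. They are RefSeq sequences of GRCm38.p6, read 5′ to 3′ along the gene's strand, with each CG dinucleotide in capitals. CG is its own reverse complement, so the count holds for both strands. Over 32851 promoter windows of that length the median count was 6.
Rxra, chr2:27676951-27677200, plus strand: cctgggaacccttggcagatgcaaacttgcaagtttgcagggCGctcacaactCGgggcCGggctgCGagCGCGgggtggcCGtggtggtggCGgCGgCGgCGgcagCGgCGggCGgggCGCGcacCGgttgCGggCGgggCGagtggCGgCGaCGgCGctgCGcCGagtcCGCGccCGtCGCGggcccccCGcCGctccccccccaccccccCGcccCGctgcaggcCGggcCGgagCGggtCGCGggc
Src, chr2:157424043-157424292, plus strand: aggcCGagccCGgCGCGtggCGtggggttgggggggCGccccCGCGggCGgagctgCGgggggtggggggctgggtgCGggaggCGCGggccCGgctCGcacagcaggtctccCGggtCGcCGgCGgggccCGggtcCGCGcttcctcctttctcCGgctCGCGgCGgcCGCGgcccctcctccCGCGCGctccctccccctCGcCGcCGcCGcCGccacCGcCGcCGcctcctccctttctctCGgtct
Ror2, chr13:53286125-53286374, minus strand: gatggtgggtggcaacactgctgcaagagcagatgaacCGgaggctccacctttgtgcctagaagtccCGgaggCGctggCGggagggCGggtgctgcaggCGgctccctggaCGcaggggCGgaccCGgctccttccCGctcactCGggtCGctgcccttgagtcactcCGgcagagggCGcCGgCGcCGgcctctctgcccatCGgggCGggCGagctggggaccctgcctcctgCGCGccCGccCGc
Thsd4, chr9:60511036-60511285, minus strand: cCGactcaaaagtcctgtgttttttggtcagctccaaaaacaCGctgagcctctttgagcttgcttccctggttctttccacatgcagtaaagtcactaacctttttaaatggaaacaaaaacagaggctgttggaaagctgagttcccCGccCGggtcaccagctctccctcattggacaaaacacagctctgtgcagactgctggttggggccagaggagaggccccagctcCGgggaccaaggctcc
The windows of Rxra and Src each held 40 CG, a count reached by 1.31% of all promoter windows. The nearest called region of any class lay 19.8 kb from this Rxra start in replicate 1 and 24.1 kb in replicate 2, and 27.9 kb and 25.8 kb from the Src start. Rxra has another annotated start, which lay 8.88 and 5.11 kb from its nearest gene body region. The Ror2 window held 24 CG, a count reached by 11.98% of windows, and its start lay inside a region in both replicates. The Thsd4 window held 5 CG, a count reached by 55.6% of windows, and the region nearest to this start was 48.3 kb away in replicate 1 and 2.14 kb away in replicate 2. These counts describe reference sequence and do not show what recruits the mark. Rxra, Src and Thsd4 were taken from genes without a promoter region, and Ror2 from genes with one in both lists. Whether these starts lay outside or inside a region therefore follows largely from that choice.

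About as many gene body regions were found in a single replicate as in both. Of the 2153 regions of replicate 1, 1134 overlapped a region of replicate 2 by at least 1 bp (52.7%, exact 95% interval 50.5% to 54.8%), beside 61.1% of all regions of that list. Of the 2345 regions of replicate 2, 1253 overlapped one of replicate 1 (53.4%, 51.4% to 55.5%), beside 61.2% of all regions. The share was 73.7% and 73.4% for promoter regions, 55.3% and 56.6% for distal regions, and 56.3% and 56.8% for intergenic regions, in replicates 1 and 2. With all widths together, gene body regions thus had the lowest share of the 4 classes in both lists.

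Width went with this share. The median gene body region was 3701 bp wide in replicate 1 (quartiles 2288 and 6663) and 3343 bp in replicate 2 (quartiles 2054 and 5850), against promoter medians of 8080 and 6843 bp. Shared gene body regions had medians of 5051.5 and 4409 bp, and those without a partner 2882 and 2614.5 bp. Under 2 kb, 33.0% and 35.6% of gene body regions were shared. From 10 to 20 kb it was 80.2% and 80.5%, and of the widest, at 20 kb or more, 57 of 63 and 36 of 40 were shared. Among regions of 2 to 5 kb, 45.1% of gene body regions (41.9% to 48.4%) and 58.2% of promoter regions (54.4% to 62.0%) were shared in replicate 1, and 49.1% (46.0% to 52.2%) and 61.0% (57.4% to 64.6%) in replicate 2. At 5 to 10 kb the gene body and promoter shares were closer, 66.3% and 72.4% in replicate 1 and 69.1% and 74.1% in replicate 2, and at 10 to 20 kb 80.2% and 86.1%, and 80.5% and 85.9%, with intervals that overlap. At equal width, gene body regions were not always the lowest of the 4 classes. Intergenic regions were lower in replicate 1 under 2 kb (30.5%) and from 10 to 20 kb (77.0%). Distal regions were lower in replicate 1 from 5 to 10 kb (64.7% against 66.3%). In replicate 2 intergenic regions were lower at 20 kb or more (83.9% against 90%). At 2 to 5 kb gene body regions were the lowest in both replicates. Wider regions also have more room to meet a partner, and that part in the shares was not tested.

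**Figure D1:**
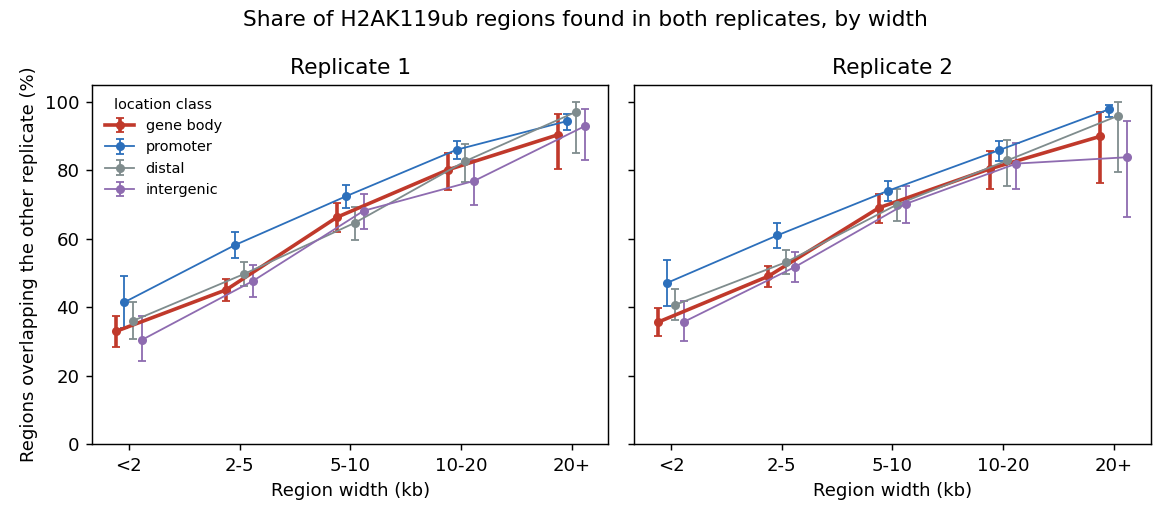
Share of called regions that overlap a region of the other replicate by at least 1 bp (vertical axis, %) by region width (horizontal axis, kb), for the 4 location classes in each replicate. Points are shares and bars are exact 95% binomial intervals. In both replicates the gene body share rose with each width class, starting at 33.0% in replicate 1 and 35.6% in replicate 2 and ending at 90.5% and 90%.

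Where a partner existed it usually carried the same class and the same name. In replicate 1, 1034 gene body regions overlapped a gene body region of replicate 2 (48.0%), and 1032 of these named the same gene. In replicate 2 the numbers were 1070 (45.6%) and 1069. A further 83 regions of replicate 1 (3.86%) and 157 of replicate 2 (6.70%) met a promoter region and no gene body region. The part that overlapped, from 1 bp upwards, was read as gene body in one library and promoter in the other. Macrod1 showed this: 2 of its 5 regions in replicate 1, chr19:7127515-7142305 and chr19:7143362-7179709, met promoter regions of Flrt1, a gene nested inside it, in replicate 2. A median of 73.1% of a shared region lay under its partner in replicate 1, and 89.5% in replicate 2.

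Gene body regions lay within the genes they named. Of 2153 regions in replicate 1, 2127 overlapped the annotated gene (98.8%), as did 2321 of 2345 in replicate 2 (99.0%), and 93.0% and 93.5% of those lay wholly inside it. The median distance from a region to the nearer end of its gene was 16.0 kb in replicate 1 and 15.2 kb in replicate 2, and 12.2% and 12.5% lay within 2 kb of an end. Shared regions lay nearer to an end (medians 13.0 and 12.6 kb) than those without a partner (19.7 and 18.5 kb). A single region took a median of 4.56% and 4.30% of the length of its gene. Exon and intron bounds were not used here. Where the reference gave starts, 7 of 1612 regions of replicate 1 and 6 of 1783 of replicate 2 covered a start of the named gene. Runx3, a Runt-family transcription factor, was one such gene: its region of 53.6 kb in replicate 1 (chr4:135127136-135180783) and that of 26.5 kb in replicate 2 both lay over an internal start.

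In both lists, gene body regions named 856 protein-coding genes, 3.96% of the 21631 in the reference. Replicate 1 alone named 1395 and replicate 2 named 1488. For 734 of the 856 (85.7%) the regions themselves overlapped between the replicates. Most names had few regions: 1112 of 1505 names in replicate 1 (73.9%) and 1188 of 1598 in replicate 2 (74.3%) had 1. Across the 856 genes, Spearman's rho between replicates was 0.52 for the number of regions and 0.60 for the widest region. These are correlations across genes, which are not independent replicates.

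Of the 856 genes, 494 had no promoter region in either list (57.7%, which is 2.28% of all protein-coding genes), 154 had one in 1 list, and 208 had one in both (24.3%). Gene body regions overlapped between the replicates in 425 of the 494. A distal region was also missing for 382 of them, and for 358 (72.5%) no region of another class or name lay over the gene or within 5 kb of it. In 41 of the 494 (8.30%) a promoter region under another gene's name lay over the gene. Starts were given for 372 of the 494, and 10 of these had a region of any class within 2 kb of a start. The 494 were chosen for lacking a promoter region, so a low count there largely follows from that choice. Genes without a promoter region had a median of 7.81% of their length under gene body regions in replicate 1 and 7.23% in replicate 2. In genes with promoter regions in both lists it was 11.2% and 10.1%. Their widest region was also narrower, with medians of 4.86 and 4.23 kb against 6.46 and 6.30 kb.

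**Figure D2:**
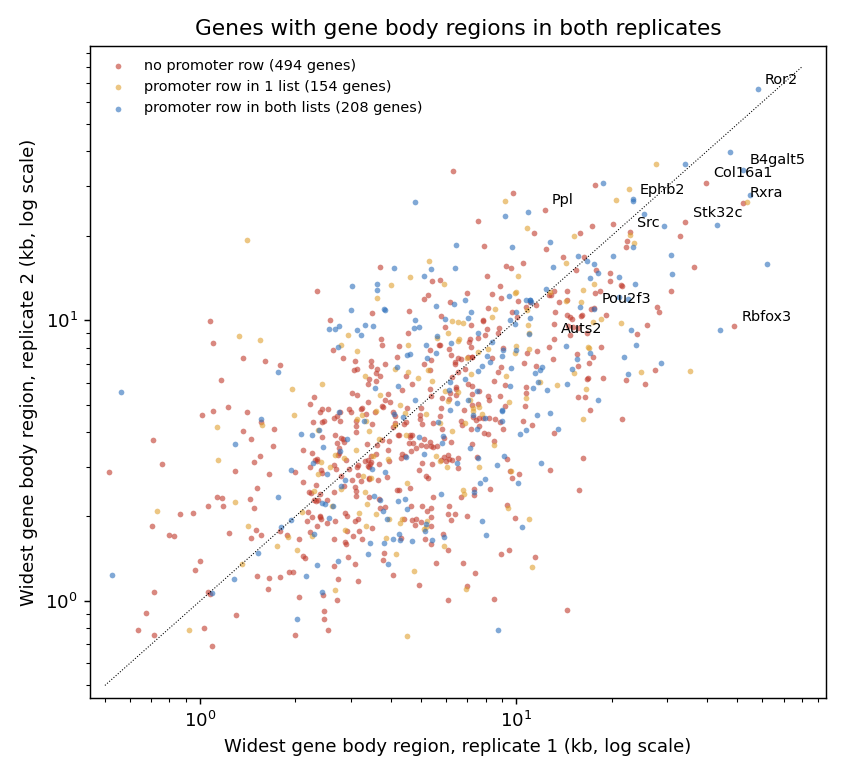
Widest gene body region of each of the 856 protein-coding genes named in both lists, in replicate 1 (horizontal axis) and replicate 2 (vertical axis), both in kb on a log scale, coloured by the number of lists with a promoter region for the gene. The dotted line marks equal widths, and genes of all 3 colours are spread along it, with Rbfox3 far below it at 49.0 and 9.52 kb.

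Genes named by gene body regions were long. The 494 genes without a promoter region had a median length of 77.8 kb, and the 208 with promoter regions in both lists 90.0 kb. Genes with a promoter region in both lists and no gene body region had a median of 11.2 kb (1476 genes), and all protein-coding genes 17.3 kb. Of genes under 10 kb, 6 of 7741 were named in both lists (0.0775%). The share was 4.49% from 20 to 50 kb, 13.4% from 100 to 200 kb and 17.6% at 500 kb and over. Promoter regions in both lists named 8.97% of genes under 10 kb and 11.5% of those of 500 kb and over. A long gene has more room for a region and for the class, so its length and its number of regions are not separate facts. Spearman's rho between length and number of regions was 0.49 over the 856 genes.

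**Figure D3:**
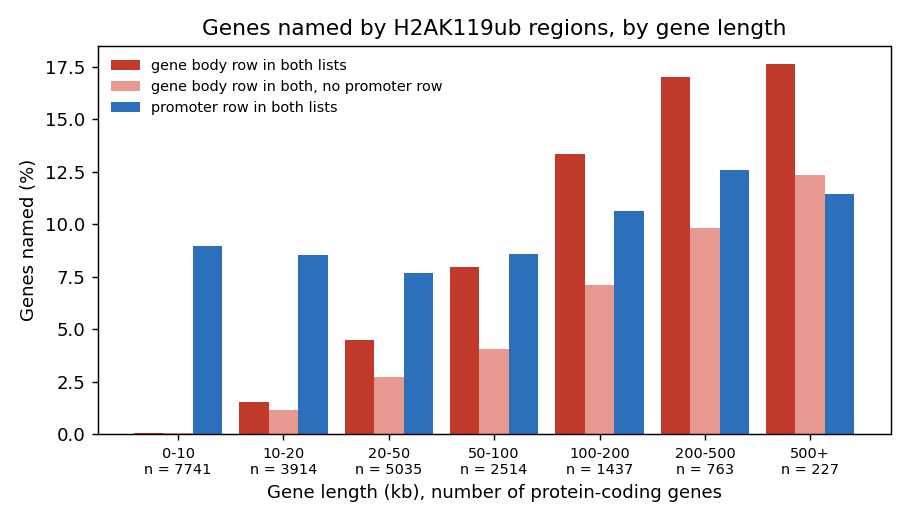
Share of protein-coding genes (vertical axis, %) named by gene body regions in both lists, by gene body regions in both with no promoter region, and by promoter regions in both, in bins of gene length (horizontal axis, kb, with the number of genes). The gene body share rose from 0.0775% to 17.6% across the bins, while the promoter share stayed between 7.71% and 12.6%.

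Among genes with no promoter region whose regions overlapped, Col16a1 and Rxra had the highest mean of the width percentiles of their widest regions in the 2 replicates. In replicate 1 alone Rbfox3 (49.0 kb) was wider than Col16a1, and in replicate 2 alone Anks1 (30.3 kb) was wider than Rxra. Col16a1 codes for a fibril-associated collagen, and a single region covered 71.1% of this 51.5 kb gene in replicate 1 (chr4:130062696-130102544, 39.8 kb) and 54.3% in replicate 2 (chr4:130071339-130102230, 30.9 kb). Both regions ran past the gene's 3′ end and left its 5′ part free. Rxra codes for the retinoid X receptor that pairs with retinoic acid, thyroid hormone and vitamin D receptors. Replicate 1 had 1 region of 52.0 kb there (chr2:27718170-27770131), and replicate 2 had 2 regions (chr2:27714400-27733863 and chr2:27735204-27761480) over nearly the same stretch. The part of Rxra under them was 52.0% and 52.6%. Rxra also had a distal region upstream in both lists, 25.2 and 16.3 kb wide.

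In Src and Stk32c the regions lay in the 3′ part and the middle of the gene. Src, the non-receptor tyrosine kinase, had 1 region in each replicate, 22.9 kb (chr2:157452204-157475108) and 20.6 kb (chr2:157450108-157470749), over 41.0% and 43.1% of the gene. Stk32c, a serine/threonine kinase gene, had regions of 34.2 kb (chr7:139131145-139165370) and 22.4 kb (chr7:139142718-139165085), over 31.2% and 20.4% of it. Gdpd5, a glycerophosphodiesterase gene, had 3 and 4 regions over 57.8% and 43.7% of the gene. The other genes of this rank were Slc39a11, a zinc transporter gene, Macrod1, Anks1, St3gal3, a sialyltransferase gene, Tns1, a gene for the focal adhesion protein tensin, Ulk4 and Arhgap26. Their widest regions lay between 17.4 kb (Arhgap26) and 36.3 kb (Macrod1) in replicate 1, and in replicate 2 between 15.5 kb (Macrod1) and 30.3 kb (Anks1). The 36.3 kb region of Macrod1 is the one that met Flrt1 promoter signal in replicate 2. A promoter region under another gene's name also lay over Slc39a11, St3gal3, Arhgap26 and Gdpd5, as over 8.30% of the 494 genes.

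In genes that also had promoter regions in both lists, the gene body regions were in part separate from them. Ror2, a receptor tyrosine kinase for Wnt5a, had 4 regions in each replicate, one of them the widest gene body region of replicate 2. It spanned chr13:53140268-53206774 (66.5 kb), and its counterpart in replicate 1 spanned chr13:53150847-53208793 (57.9 kb). The promoter region of Ror2 was 30.3 kb wide in replicate 1 and 18.0 kb in replicate 2. The stretch between it and the wide internal region held 2 smaller gene body regions in each replicate. B4galt5, a galactosyltransferase gene, was covered over 85.4% and 91.3% of its length, and Txnrd2, the mitochondrial thioredoxin reductase gene, over 74.9% and 60.5%. Ephb2, an Eph receptor of axon guidance, had 3 and 5 regions, with the widest at 23.3 and 27.1 kb. Its replicate 2 region chr4:136743978-136767950 had no counterpart in replicate 1. Man1c1, Grm4, Parvb and Hpse2 completed this rank, with widest regions between 29.2 and 54.8 kb in replicate 1 and, in replicate 2, between 21.6 and 36.0 kb.

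**Figure D4:**
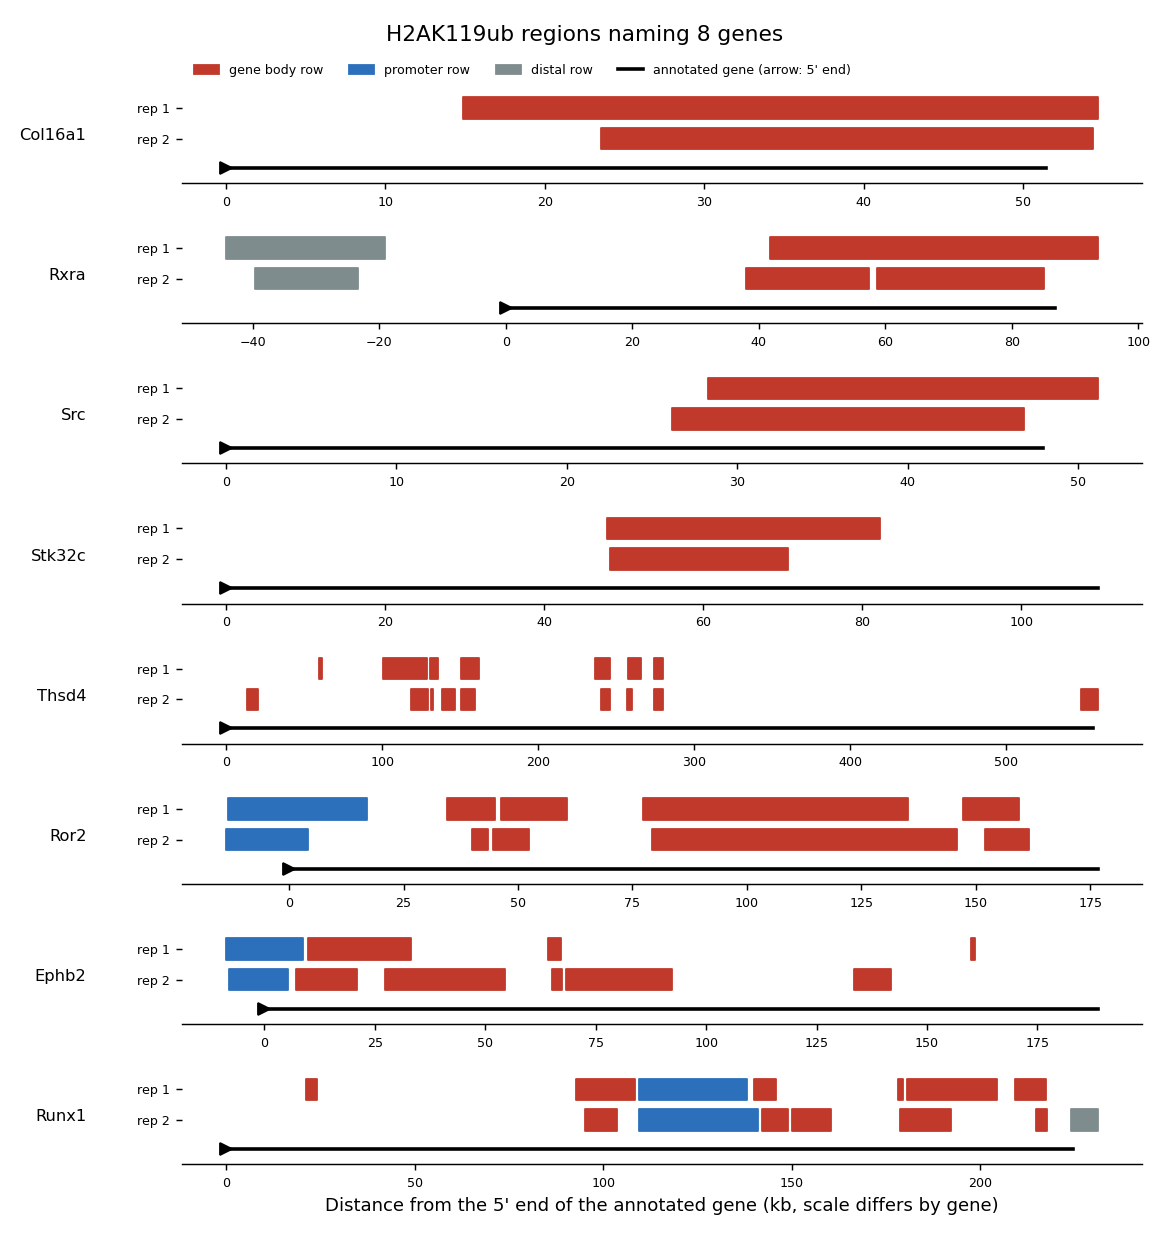
Regions naming 8 genes, drawn by distance from the 5′ end of the annotated gene (horizontal axis, kb, a different scale for each gene), with replicate 1 above replicate 2 and the gene as a black line. Col16a1, Rxra, Src, Stk32c and Thsd4 have gene body regions and no promoter region, while Ror2, Ephb2 and Runx1 have both kinds, the promoter region of Runx1 lying within the gene.

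Some genes carried series of separate regions. Auts2, whose protein is a partner of variant PRC1 complexes, had the most, 14 regions in replicate 1 and 13 in replicate 2 along 1106 kb of chromosome 5, with no promoter region under its name. The widest were 13.1 and 8.61 kb, and together its regions took 5.87% and 4.79% of the gene. The widest one in replicate 1, chr5:131882842-131895963, overlapped a replicate 2 region classed as the promoter of 4930563F08Rik. Skap1, an adaptor gene of T cell signalling, had 10 and 9 regions over 34.7% and 28.8% of its length, with promoter and distal regions in both lists. Thsd4, the gene for a microfibril-associated protein, had 7 and 9 regions and no promoter region. Of these, the replicate 1 region of 27.9 kb (chr9:60393573-60421497) met 1 of 11.0 kb (chr9:60392855-60403830). Fstl4 had 7 and 6 regions, yet its 22.2 kb region in replicate 1 (chr11:53053158-53075336) had no partner in replicate 2, where the widest was 6.13 kb. Nav2 had 5 and 9 regions, and Abcc4, a drug and nucleotide efflux transporter gene, had 6 and 7.

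The gene lists below were compared with the share of all protein-coding genes named by gene body regions in both lists, 3.96%, and with 7.46% for genes at or above the median length. In 22 of 25 lists the share exceeded 3.96%, and among members at or above the median length it exceeded 7.46% in 20. This cut does not match the lists for length. The longest lists by median were the cadherin (121 kb) and collagen (114 kb) lists, with shares of 7.14% and 9.09%. Of all genes of 100 to 200 kb, 13.4% were named. Counts of named members without a promoter region stand beside 57.7% of all genes with gene body regions in both lists. Lists hold from 18 to 98 genes, some genes stand in more than 1 list, and no list was tested.

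Developmental transcription factor genes are given with both kinds of region, beside all protein-coding genes, of which 8.82% had promoter regions in both lists and 3.96% gene body regions in both. The 39 Hox genes, with a median length of 3.74 kb, had no gene body region in either list, while promoter regions in both lists named all 39. Of 98 other developmental homeobox genes, 10 had gene body regions in both lists (10.2%) and 80 had promoter regions in both. Pax3, a regulator of neural crest and muscle precursors, had its widest gene body region at 23.3 and 26.5 kb. Lmx1b, a LIM-homeodomain gene of dorsal limb identity, had 23.4 and 18.2 kb, and Pax7, a gene of muscle stem cells, 18.1 and 14.7 kb. These 3 genes had promoter regions in both lists. Meis1, a Hox cofactor gene, and Zfhx3 were the 2 of the 10 without a promoter region. Of the 58 T-box, GATA, Sox, Fox and Runx genes, 8 were named (13.8%), against 39 by promoter regions in both lists. Of the 8, 3 had no promoter region, beside 57.7% of all genes with gene body regions in both lists. Foxn1, a regulator of thymic epithelium and of hair keratinocytes, was one of the 3, with 64.6% and 45.9% of its 29.2 kb under 2 regions in each replicate. Runx1 had 6 and 5 gene body regions around an internal promoter region of 28.5 and 31.4 kb. Its widest gene body region was 23.8 kb in replicate 1 and 13.5 kb in replicate 2.

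In the Hedgehog pathway 3 of 18 genes were named (16.7%). Gli3, the transcription factor that acts largely as the pathway's repressor, had 1 region per replicate inside the gene, 6.55 kb (chr13:15529307-15535859) and 2.97 kb (chr13:15532111-15535080), and no promoter region. Boc, a co-receptor of Hedgehog ligands, had none either, with 1 and 2 regions. Scube2, which helps release the ligand, had 17.6 and 15.9 kb regions along with promoter regions. The ligand gene Shh itself had promoter regions in both lists, 19.1 and 27.0 kb wide, and no gene body region. In the Wnt pathway 8 of 61 genes were named (13.1%). The regions overlapped between replicates in 5 of the 8, beside 85.7% of all genes named in both lists. Besides Ror2 the Wnt genes named included Lgr6, an R-spondin receptor gene, with 11.0 and 11.8 kb. The ligand gene Wnt8b had 10.7 and 11.2 kb and no promoter region.

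In the Bmp and Tgf-beta pathway 7 of 45 genes were named (15.6%), 5 of them without a promoter region. Of all genes with gene body regions in both lists, 57.7% had none. Tgfbr3, the co-receptor betaglycan, had 7 and 4 regions, the widest 7.25 and 7.41 kb. Smad3, a signal transducer, had 5.72 and 8.17 kb, and Ltbp2, a latent Tgf-beta binding protein gene of the matrix, 6.54 and 6.56 kb. Of 37 Fgf pathway genes, Fgf1 was named in both lists (2.70%), with 1 and 3 regions. Notch2, Notch3 and Maml3 were named among 30 Notch pathway genes, without promoter regions. Their widest regions lay between 1.13 kb (Maml3) and 3.73 kb (Notch2) in replicate 1 and between 1.74 kb (Notch3) and 8.58 kb (Notch2) in replicate 2. The regions overlapped between replicates in Notch3 alone of the 3, beside 85.7% of all genes named in both lists.

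Of 72 axon guidance genes 14 were named (19.4%), 4 of them without a promoter region. This was the highest share of the 25 lists with both replicates, but another list was higher under each alternative: the Hedgehog list without replicate 2 (33.3% against 22.2%) and with overlapping regions (16.7% against 15.3%), the Bmp and Tgf-beta list without replicate 1 (28.9% against 23.6%), and the T-box, GATA, Sox, Fox and Runx list among longer genes (36.4% against 24.5%). The 4 of 14 without a promoter region stand beside 57.7% of all genes named in both lists. The widest regions after those of Ephb2 belonged to Unc5b, a netrin receptor gene, at 20.7 and 26.8 kb. Sema4d, a semaphorin gene, had 8.39 and 7.32 kb and no promoter region. Yet its gene body region in replicate 1 covered an annotated start, and the nearest in replicate 2 lay 1.03 kb from one. Of 70 voltage-gated channel genes 9 were named (12.9%), among them the sodium channel gene Scn8a (10.8 and 21.4 kb) and the calcium channel gene Cacna1a (9.49 and 12.2 kb). Neurotransmitter receptor genes came closer to the background, with 4 of 81 (4.94%). Among members at or above the median length their share was 5.36%, under the 7.46% of all genes of that length. The glutamate receptor gene Grm4 had regions of 34.2 and 36.0 kb, Grik4 5 regions in each replicate, and Htr6, a serotonin receptor gene, 6.13 and 5.66 kb.

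For matrix and adhesion genes, the count without a promoter region stands beside the 57.7% of all genes with gene body regions in both lists. The 4 of 44 collagen genes (9.09%) were Col16a1, Col5a1, Col6a3 and Col23a1, and none of them had a promoter region. Their regions overlapped between replicates in 2 of the 4, beside 85.7% of all genes named in both lists. Col5a1 had its widest region at 25.5 kb in replicate 1 and 5.94 kb in replicate 2. Among 37 integrin and laminin genes 5 were named (13.5%), 4 without a promoter region, including Lamc3 (11.6 and 6.89 kb) and Itga11 (4.07 and 4.17 kb). Lamb1 had 9.97 and 12.6 kb and a promoter region in 1 list. Of the 42 cadherin genes 3 were named (7.14%): Cdh4 at 27.6 and 36.0 kb, Cdh23, a stereocilia tip-link gene, at 9.70 and 10.7 kb, and Celsr1, a planar polarity gene, at 9.99 and 8.08 kb.

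Nuclear receptor genes were named in 7 of 48 cases (14.6%), led by Rxra. Rarg, the retinoic acid receptor gene prominent in epidermis, had 1.57 and 4.24 kb, and Ppard 3.84 and 5.19 kb without overlap. Among 47 Polycomb and partner genes 7 were named (14.9%), 2 of them, Auts2 and Scml4, without a promoter region. Of all genes named in both lists, 57.7% had none. Kdm2b, whose protein brings a variant PRC1 to CpG islands, had 1 region per replicate at nearly the same place, 7.80 kb (chr5:122948262-122956062) and 6.85 kb (chr5:122948216-122955065). Bcor, a subunit gene of the same variant complex, had 2 regions in each replicate, the widest 4.54 and 8.15 kb.

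Keratinocyte and taste bud lists had shares of 6.06% to 7.69%, beside 3.96% of all protein-coding genes. A region list shows marked genes and not the cells present, so the labelled cell type could not be checked by expression here. Among 26 basal keratinocyte genes, Dst, a hemidesmosome linker gene, and Bcl11b were named in both lists (7.69%), and both had promoter regions in both lists. Of 40 differentiated keratinocyte genes 3 were named (7.50%). Ppl, the gene of the cornified envelope protein periplakin, had regions of 12.3 kb (chr16:5086875-5099171) and 24.8 kb (chr16:5085895-5110703) and no promoter region. Grhl3, a barrier transcription factor, had 56.7% and 84.2% of its 31.7 kb under 2 regions in each replicate, with a promoter region in replicate 1. Notch3 is the third of them.

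Of 33 taste bud genes, Pou2f3 and Kcnq1 were named in both lists (6.06%), and neither had a promoter region. Pou2f3, the transcription factor that sweet, umami and bitter cells require, had regions of 17.6 kb (chr9:43136474-43154111) and 5.95 kb (chr9:43169795-43175743) in replicate 1. Replicate 2 had 5 regions there, 3 of which met those: chr9:43136469-43147529, chr9:43148693-43153924 and chr9:43170098-43176128. All 2 and 5 regions together took 28.8% and 32.1% of the gene. Kcnq1 had 2 and 5 regions. Prox1, a transcription factor of taste and lymphatic cells, had a single gene body region, of 1.04 kb in replicate 2, and promoter regions in that list. Sox2, which marks taste progenitors, had promoter regions of 6.42 and 2.93 kb and no gene body region.

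Lists of other cell types held some wide regions, not all of them wide in both replicates. Among 19 Merkel cell genes, Tubb3 and Rbfox3 were named (10.5%). Rbfox3, the neuronal splicing factor gene known as NeuN, had 49.0 kb (chr11:118493885-118542854) and 21.2 kb regions in replicate 1, while its widest in replicate 2 was 9.52 kb (chr11:118498756-118508272). In the fibroblast and mesenchyme list 2 of 24 were named (8.33%), Col5a1 and Meox1. In the skeletal muscle list 3 of 22 were named (13.6%), Pax3, Pax7 and Ryr1, each with a promoter region in at least 1 list. The neuronal and glial list had 3 of 30, Rbfox3, Nrxn2 (9.66 and 18.2 kb) and Kit. The endothelial and immune list had 5 of 28 (17.9%), of which Tek, an angiopoietin receptor gene, with 8.56 and 4.44 kb, Tie1 and Vwf lacked promoter regions. Of 40 housekeeping genes, with a median length of 6.94 kb, none had a gene body region in either list. Of all protein-coding genes under 10 kb, 0.0775% were named in both lists. Of the 40, 13 were at or above the median length, where 7.46% of all genes were named.

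**Figure D5:**
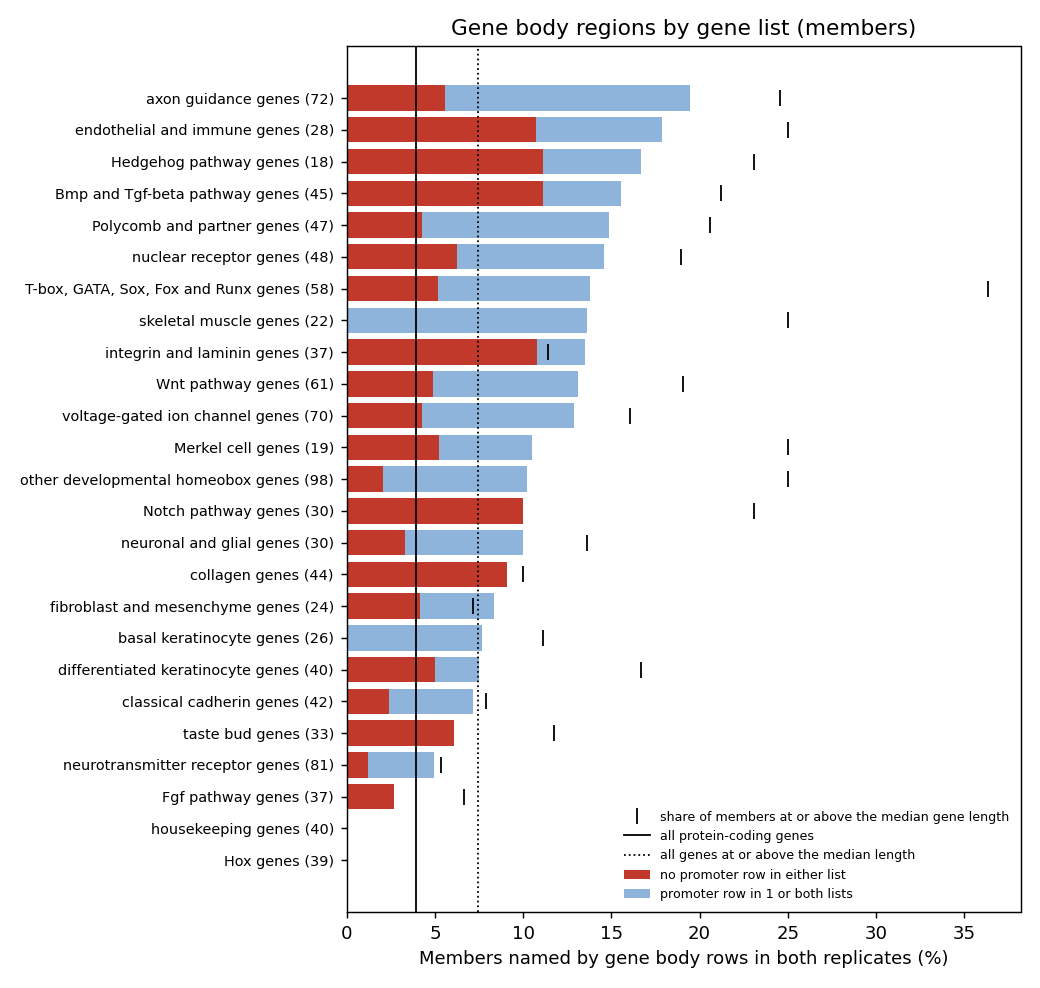
Share of each gene list (horizontal axis, %, with the number of members beside each name) named by gene body regions in both replicates, split by whether a promoter region named the gene. The solid line is the 3.96% of all protein-coding genes, the dotted line the 7.46% of genes at or above the median length, and short ticks give that share within each list. Axon guidance genes stand at 19.4%, an order among lists that changes under each alternative, and Hox and housekeeping genes are at 0. Hox and housekeeping genes are short, with median lengths of 3.74 and 6.94 kb.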

How the data were processed

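H2AK119ub ChIP-seq libraries of newborn mouse lingual epithelium, 2 replicates and 1 input, used 4 ng of DNA each, per the labels, and the input was not analysed here. For each replicate the authors deposited its own list of regions, and none was called on pooled reads. Each row gives a chromosome, a start, an end, 1 of 4 location classes and gene names, per the file headers, in mm10. Tools listed, per the submitters' processing notes, were SAMtools 0.1.19 and Bowtie2 2.3.3. Which peak caller was used, with what settings and with or without the input, how coordinates are counted and what distances part the classes is not given in the sources used here. No score stands beside a region. The settings bear on widths and on how often a broad stretch is split into several regions.

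Widths are end minus start. Overlap was counted from 1 bp, with exact (Clopper-Pearson) 95% intervals. Names were matched by symbol, then synonym, to RefSeq genes of GRCm38.p6, the assembly of mm10, and 2151 of 2153 and 2344 of 2345 rows matched. A promoter row counted for a gene by the name the authors gave it. The table has gene bounds, and starts came from the RefSeq promoter table, which gave one for 74.9% and 76.0% of rows and a sequence for 75.3% of the 494 genes without a promoter region. Both are under 80%, so summaries of position by strand over all regions and the comparison of promoter CG between gene classes are void. Distance to the nearer gene end was used for those summaries. Starts and strand were used only for counts among rows and genes that have a start and for single genes.

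Genes named in the text were the 12 without promoter rows and the 8 with them in both lists with the highest mean width percentile over the replicates, among genes whose regions overlapped, the 6 with the most rows, up to 3 per gene list, and Pou2f3, Prox1, Sox2 and Shh. One gene that the rule selects is not reported here. Other members, such as Meis1, Zfhx3, Col23a1, Scml4, Tie1 and Vwf, and the 4 printed promoters, were chosen after their values were seen. The members and lists were chosen with earlier results of these data known. The overlap step was tested on simulated data. Alternatives were other overlaps, classes of partner, width, matching and each replicate alone. Analyses used Python 3.11.15, numpy 2.4.6, pandas 2.3.3, scipy 1.17.1 and matplotlib 3.10.9.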

Additional observations from a re-analysis of the deposited data

How the results depend on the processing

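The share of gene body regions found in both replicates depends on what counts as shared. It was 26.1% in replicate 1 and 25.1% in replicate 2 when at least 50% of both regions had to overlap, 35.5% and 42.4% when 50% of the gene body region had to, 48.0% and 45.6% when the partner had to be a gene body region, and 66.6% and 66.7% for regions above the median width. With 1 replicate in place of both, between 1395 and 1488 genes had gene body regions and between 971 and 1040 of them had no promoter region. Above the median width the counts were 432 and 228. The median gene length was between 63.0 and 69.7 kb with a single replicate and 73.4 kb for genes whose regions overlapped. The other 21 recomputed summary values stayed within the exact interval, the replicates' spread or 1.5 times, and no value reversed. Some of them could not have moved. For share of list, width and position, a mean of 2 replicates cannot leave their spread when 1 is dropped. Every gene body row named 1 gene, so keeping only such rows changed nothing. These settings say nothing about stability. Between 20 and 22 of the 25 gene lists stayed above the share of all genes. The neurotransmitter receptor and taste bud lists fell to or below it without replicate 2, where the Fgf list rose above it, the Notch list fell below it when regions had to overlap, and the fibroblast and neurotransmitter receptor lists did among longer genes.

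No paired analysis was possible because the replicates form 1 group and no second group was compared. The comparison of promoter sequence by gene class was not run, since too few genes had a sequence. Depth and strength are unknown, so a region missing from a list cannot be told apart from one under that list's calling threshold.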

Other observations

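Gene body regions also named noncoding genes. In both lists they named 53 lncRNA genes, 35 of them without a promoter region. Of all names in both lists 58.4% had none, and of the protein-coding genes 57.7%. No share of all lncRNA genes in the reference was computed. The lncRNA gene 3632454L22Rik on X had 1 region per replicate, 18.0 kb in replicate 1 and 18.0 kb in replicate 2, over 47.5% and 47.3% of the gene. Sox2ot, the lncRNA gene within which Sox2 lies, had 2 and 3 regions, the widest 18.2 and 7.07 kb, and no promoter region under its own name. Pvt1, beside Myc, had 4 and 7 regions.

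On X, gene body regions were sparser than on the autosomes, with 0.825 against 2.11 per Mb of protein-coding gene in replicate 1 and 0.739 against 2.31 in replicate 2. Chromosome 3 had the fewest of the autosomes, at 1.02 and 1.25 per Mb, and chromosomes 11 and 19 the most, at 3.35 and 3.38 per Mb in replicate 1 and 3.99 and 3.48 in replicate 2.

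Some names do not match the place of the region. All 8 and 11 rows that name Bc1 and all 9 and 6 rows that name Mir5098 lay away from the annotated gene of that name. In all, 24 and 23 matched rows lay off the gene they named. Values under these names describe other loci.

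Of 539 protein-coding genes with gene body regions in replicate 1 alone, 147 (27.3%) had a promoter region in replicate 2. Of 632 in replicate 2 alone, 214 (33.9%) had one in replicate 1. Among all 21631 protein-coding genes, promoter regions of replicate 2 named 448 with a gene body region in that list and 2242 without. In replicate 1 they named 424 and 2346. No region of the promoter or distal class named the gene in the other list for 334 and 358 of them.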
